A study of Rattus norvegicus and Ovis aries with 113 samples.

Results

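The 10 genes described here, Crisp1, Lcn5, Lcn6, Lcn8, Lcn9, Lcn10, Rnase9, Rnase10, Cst11 and Cst8, encode proteins known as secretory products of the epididymis. They were taken by name, and all 10 were among the 38675 genes of the rat count table. Under upper-cased symbols, 8 of them were among the 31304 genes of the sheep table. LCN5 and LCN8 were not analysed in sheep here.

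The epididymis is the duct in which sperm mature after they leave the testis, and its epithelium secretes different proteins along its length. Lipocalins carry small hydrophobic molecules, CRISP proteins are cysteine-rich proteins that coat sperm, Rnase9 and Rnase10 belong to the ribonuclease A superfamily, and Cst8 and Cst11 belong to the cystatins, a family of protease inhibitors and their relatives. Cst8 is also known by the name CRES and has been described both in the epididymis and in germ cells of the testis.

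RNA was sequenced from untreated sheep and rats to compare brain with a reproductive sample. The rats were post-pubertal Sprague Dawley males (15 animals, with whole brain and sperm obtained from seminal fluid) and Sprague Dawley females (14 animals, with whole brain and ovary). The sheep were 5 post-pubertal males, each with sperm and 10 brain dissections, among them cerebellum (CB), hippocampus (Hip), pons, basal ganglia (BG) and cortical areas labelled EC, FC, MC, PC, PPC and VC. Library numbers name the animals.

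Library totals, in M (1000000 counts), ran from 13.7 to 65.1 M in rat sperm, 50.5 to 60.3 M in ovary, 38.2 to 102 M in male brain, 45.2 to 119 M in female brain, 13.7 to 65.1 M in sheep sperm and 46.7 to 72.4 M in sheep brain. The deepest brain libraries were female 1 and male 4. In them, 86.9 and 83.1% of counts were in 3 ribosomal RNA entries (Rn45s, Rn28s and LOC120093067). In the other rat libraries this share reached 54.0%, in female brain library 22. These counts are part of the totals used for scaling. Rat sperm libraries 7, 16 and 17 stood apart. Genes with 1 to 3 counts made up 1.70 to 2.33% of their detected genes and 8.32 to 17.1% in the other 12, so a count of 0 in these 3 libraries says less. In rat sperm, all 14 genes of a late germ cell list averaged at least 10 CPM (counts scaled to a library total of 1000000), led by Odf1, Oaz3 and Smcp, and their summed level ranged from 475 to 36734 CPM. The 6 brain markers summed to at most 18.3 CPM. Levels are CPM of the plain total, not corrected for transcript length, and are therefore compared between libraries. Where levels of different genes are set side by side below, transcript length may be part of the difference, and its size is not read.

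In rat sperm, 3 of the 10 genes averaged 1 CPM or more, namely Crisp1, Cst8 and Lcn5, and the other 7 averaged 0.00114 to 0.189 CPM. For most of the genes the label of an epididymal secretory gene therefore went with a mean below 1 CPM in these libraries. Other epididymal genes were abundant in the same libraries. Ces5a, a carboxylesterase secreted by the epididymis, averaged 7462 CPM ± 2611 (SD, n = 15), Clu (clusterin) averaged 5739 CPM ± 5026 (SD, n = 15), and Cd52, a glycoprotein transferred to sperm, averaged 4357 CPM ± 2529 (SD, n = 15). Of 26 such genes listed, 21 were in the table and 16 of them averaged at least 1 CPM. Gpx5 and Adam28, both known from the epididymis, averaged 0.055 and 0.016 CPM.

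**Figure D1:**
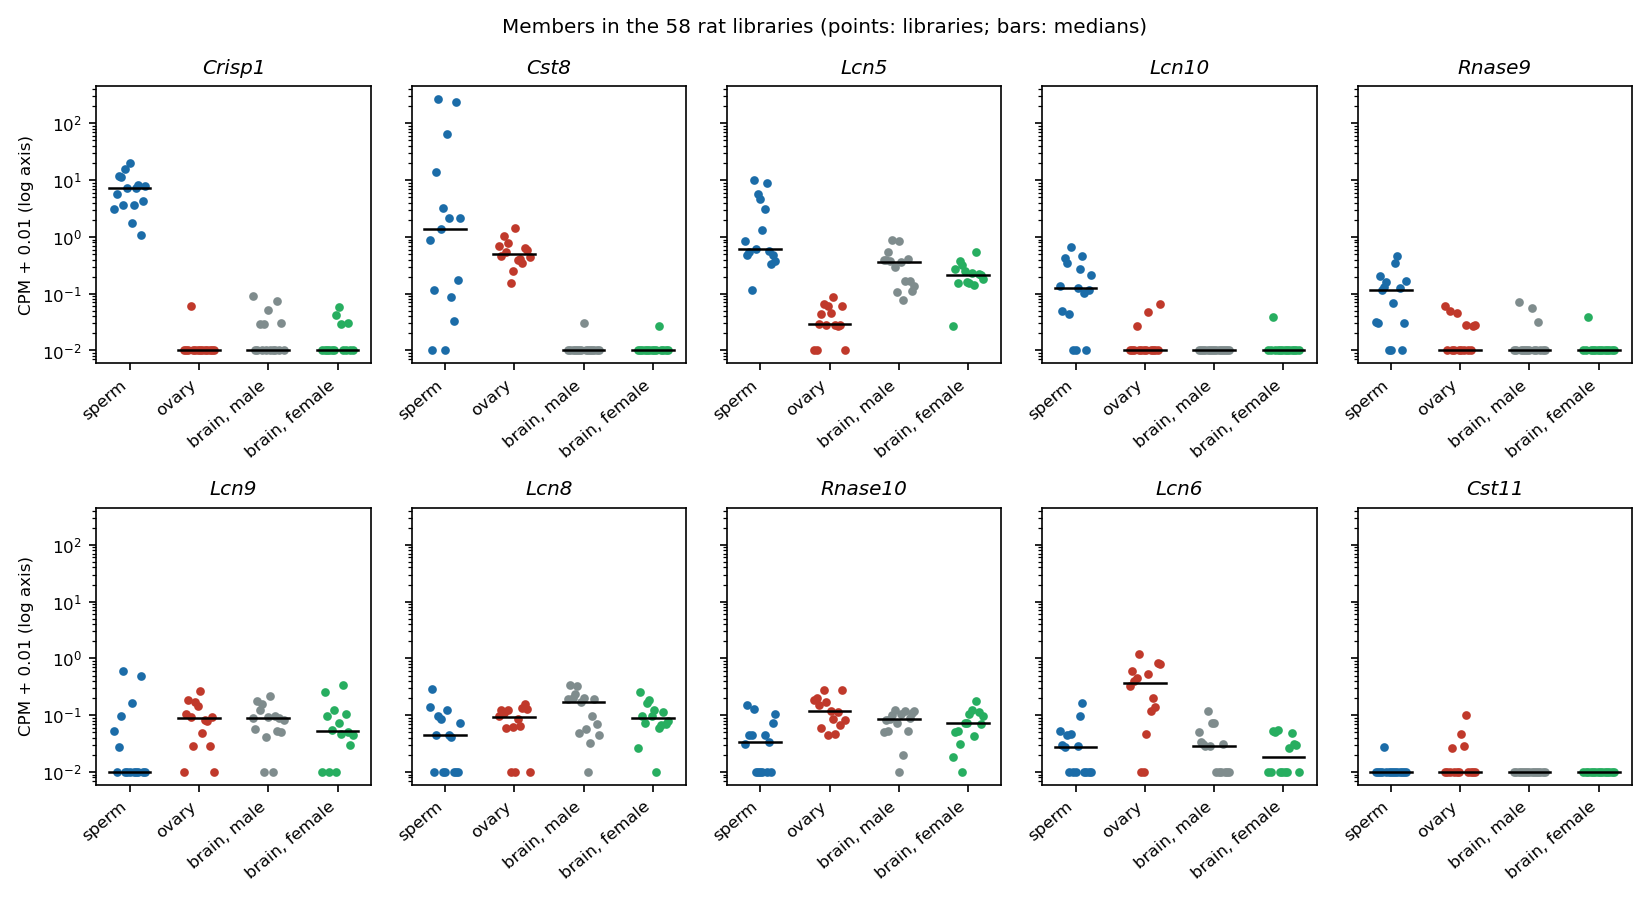
Each panel plots 1 gene, with the level in CPM + 0.01 on a log axis against the 4 rat groups (15 sperm, 14 ovary, 15 male brain and 14 female brain libraries); points are libraries and bars are medians. Crisp1 in sperm (1.08 to 20.1 CPM) lies above every other library, Cst8 in sperm spans 0 to 273 CPM, and the lower row reaches at most 1.16 CPM.

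Crisp1 (chr9:28238326-28265344 of GRCr8) encodes a CRISP protein. Its gene carries the synonym Crisp4, while Crisp3 has Aeg and Crisp1 among its synonyms in the same annotation. In sperm Crisp1 was counted in 15 of 15 libraries, with a lowest level of 1.08 CPM in library 7, a median of 7.19 CPM and a highest level of 20.1 CPM in library 17. In ovary it had 3 counts, all in 1 of 14 libraries. In brain it was at 0 in 9 of 15 male and 10 of 14 female libraries, with highest levels of 0.0808 and 0.0480 CPM. The sperm libraries overlapped with no library of the other groups. Over the group totals, Crisp1 was 459-fold higher in sperm than in male brain, with an exact 95% counting interval of 262 to 889.

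Of the 10 genes, 2 passed the low-count filter in the comparison of rat sperm with male rat brain, and both were called higher in sperm. Calls required an adjusted p under 0.05 together with a change of 1 or more on the log2 scale. Over all 20480 genes tested, 59.1% were called in this comparison and 27.7% were called higher, so the count says little about these genes. The log2 fold change of Crisp1 was 8.98 ± 0.62 (SE), with an edgeR adjusted p of 2.78e-14. The comparison cannot tell fewer cells of a type from less RNA per cell, in this case or in any other bulk comparison here.

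The filter kept genes with enough counts in 1 group, so a gene that is high in sperm alone passes through sperm. Between sperm and ovary, 3 of the 10 genes passed the filter and all 3 were called higher in sperm, while 50.8% of 19611 genes tested were called in either direction and 22.9% were called higher. This comparison uses the same sperm libraries as the one with brain. Crisp1 had a log2 fold change of 10.48 ± 0.67 (SE) and an edgeR adjusted p of 1.98e-14. The 3 ovary counts leave the ratio of 1799 with an exact 95% counting interval of 615 to 8728.

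Relatives of Crisp1 were also counted in the rat sperm libraries. Crisp3 had 2704 CPM ± 1378 (SD, n = 15) and Crisp2, a protein of the sperm head and tail made in the testis, had 293 CPM ± 515 (SD, n = 15). For every 1000 counts of Crisp3 there were 1.26 to 6.11 counts of Crisp1. Of 12 other genes listed for the CRISP family, 11 were in the table and 8 were tested against male brain, with 5 called higher and 2 lower. Over all genes tested there, 27.7% were called higher and 31.5% lower.

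Lcn5 (chr3:28871323-28875335) encodes the epididymal retinoic acid-binding protein. In sperm its lowest level was 0.104 CPM in library 13, the median 0.595 CPM and the highest 9.93 CPM in library 14. The level reached 1 CPM in 6 of 15 libraries, and those 6 were also above the highest male brain library, at 0.860 CPM. Libraries 5 and 14 held 63.2% of all Lcn5 counts in sperm.

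Male brain libraries had 0.0687 to 0.860 CPM of Lcn5 with a median of 0.349 CPM, so sperm and brain overlapped. Ovary libraries had 0 to 0.0763 CPM, below every sperm library. Lcn5 was called higher in sperm than in male brain, with a log2 fold change of 3.32 ± 0.61 (SE) and an edgeR adjusted p of 1.16e-05, and higher in sperm than in ovary, with 6.76 ± 0.78 (SE) and an edgeR adjusted p of 6.88e-09. Against brain, the log2 fold change was 2.16 with the animal number as a block and 1.93 with limma voom and library quality weights, and the gene was called in both. Without libraries 16 and 17 it did not pass the filter in the comparison with ovary.

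In female brain, where ribosomal RNA entries held up to 86.9% of a library's counts, Lcn5 had 0.0168 to 0.531 CPM. The median was 0.206 CPM, against a median of 0.0192 CPM in ovary. Lcn5 did not pass the filter there. Without a filter it was called lower in ovary than in female brain, at -3.11 on the log2 scale with an edgeR adjusted p of 3.91e-10, and DESeq2 gave -3.27 with an adjusted p of 1.10e-17. Of all genes tested without a filter, 10314 of 33789 were called lower in ovary, and with the filter 29.2% were.

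Lcn8, Lcn5, Lcn6 and Lcn10 lie side by side on chromosome 3 between 28866061 and 28892454, in that order, and Lcn9 lies at chr3:29041710-29050677. These lipocalins are known from the epididymis of rodents. Apart from Lcn5 they were near the limit of counting in sperm. Lcn6 had 24 counts in all 15 sperm libraries together, Lcn8 had 45, Lcn9 had 73 and Lcn10 had 160.

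Lcn10 was seen in 12 of 15 sperm libraries, with a median of 0.115 CPM and a highest level of 0.651 CPM in library 15. The 3 sperm libraries at 0 were 7, 16 and 17, the same 3 that held few low counts. Male brain had 0 counts of Lcn10, which allows 0.00379 CPM over the group (3 counts), female brain had 2 counts and ovary had 6. Without a filter it was called higher in sperm than in ovary, at 4.79 on the log2 scale with an edgeR adjusted p of 3.08e-05. The counts put it 28.0-fold higher, with an exact 95% interval of 12.6 to 77.5.

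Lcn6 was lower in sperm than in ovary. Ovary libraries ranged from 0 to 1.16 CPM with a median of 0.354 CPM and 2 libraries at 0, and sperm libraries ranged from 0 to 0.154 CPM with a median of 0.0176 CPM. It did not pass the filter. Without one, the log2 difference of sperm from ovary was -3.06 with an edgeR adjusted p of 0.00160, and ovary was higher than female brain by 4.26, with an edgeR adjusted p of 6.48e-07. Lcn6 in ovary was 301 counts against 12 in female brain. Of all genes tested without a filter, 6883 of 35009 were called lower in sperm than in ovary, and with the filter 27.9% were.

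Lcn8 and Lcn9 did not separate the groups. Lcn8 averaged 0.0567 CPM ± 0.0764 (SD, n = 15) in sperm, 0.0739 CPM ± 0.0494 (SD, n = 14) in ovary and 0.137 CPM ± 0.105 (SD, n = 15) in male brain. Lcn9 averaged 0.0918, 0.0867 and 0.0801 CPM in the same groups. All groups overlapped, and neither gene was called in a comparison that included sperm without a filter. In sperm, 65 of the 73 counts of Lcn9 came from libraries 14, 7 and 3, with 35, 22 and 8 counts.

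Rnase10 (chr15:26700219-26702681) and Rnase9 (chr15:26733051-26736605) encode secreted members of the ribonuclease A superfamily. Rnase9 had 101 counts over the sperm libraries, at most 0.445 CPM in library 5, and none in libraries 7, 16 and 17. It had 10 counts in ovary and 6 in male brain. Without a filter it was called higher in sperm than in ovary by 3.54 on the log2 scale, with an edgeR adjusted p of 0.000387, and higher than in male brain by 3.96, with an edgeR adjusted p of 8.42e-05. Rnase10 had 31 counts in sperm against 96 in ovary, and sperm overlapped with ovary. Its difference, -1.13, did not pass edgeR's test without a filter (adjusted p = 0.105), while DESeq2 gave -1.19 with an adjusted p of 0.0335. Rnase10 overlaps a pseudogene, Psma7-ps2, and which of them a read was counted for is not known.

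The genes next to Rnase9 and Rnase10 were measured at far more counts in the same libraries. Rnase11, the next gene after Rnase9, had 41.2 CPM ± 39.9 (SD, n = 15), and Rnase12, the one after it, had 240 CPM ± 208 (SD, n = 15). Both are ribonuclease A genes known from the male tract. Eddm3b, an epididymal protein gene of the same cluster, ranged from 1.15 to 805 CPM. In ovary and brain Rnase11 averaged 0.0175 to 0.0315 CPM and Rnase12 0.0825 to 0.188 CPM.

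**Figure D2:**
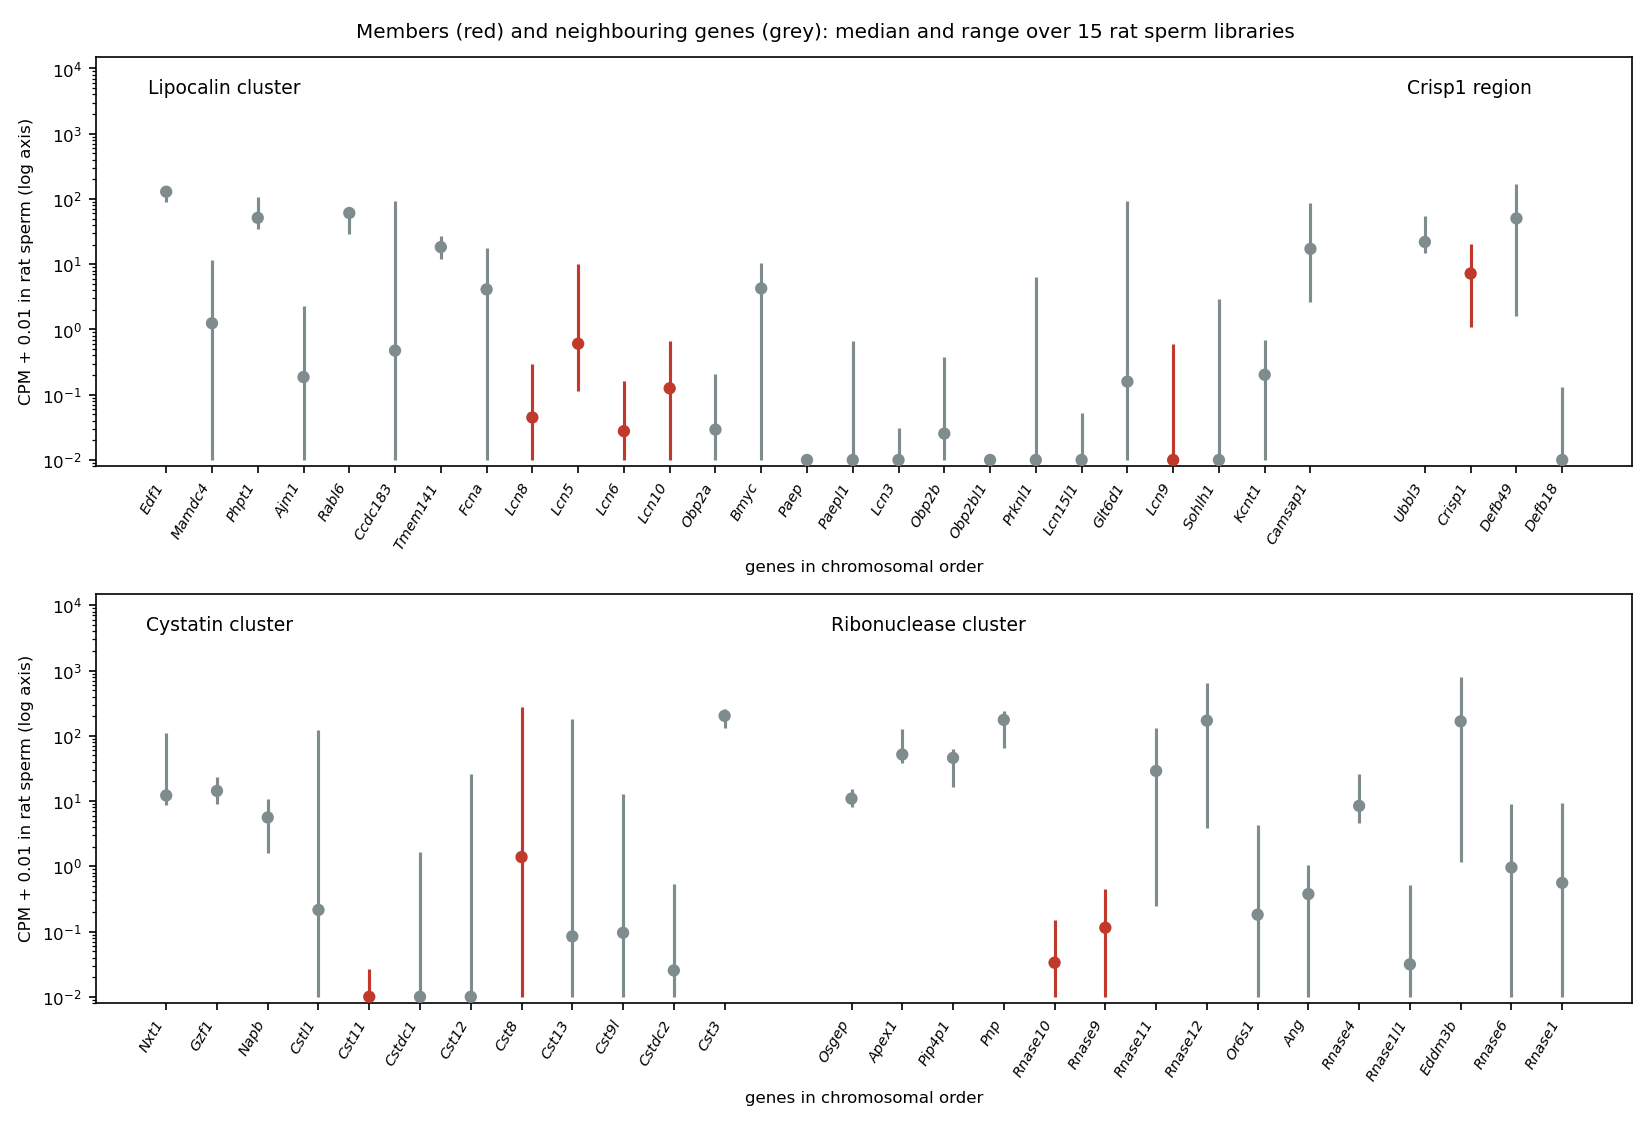
Levels in rat sperm, in CPM + 0.01 on a log axis, of the 10 genes (red) and of named genes within 100000 bases of them (grey), in chromosomal order within each of 4 regions; dots are medians and lines the range over 15 libraries. Rnase10 and Rnase9 sit under 0.5 CPM beside Rnase11 and Rnase12 with medians of 28.9 and 171 CPM, and the lipocalins sit at the bottom apart from Lcn5.

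Cst11 (chr3:156664551-156667275) was at the limit of counting everywhere in rat. It had 1 count in sperm, in library 14, 9 counts in ovary and 0 in both brain groups. Over the sperm group, 1 count allows up to 0.00756 CPM (exact 95% counting interval).

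Cst8 (chr3:156697776-156704413) had the widest range. In sperm it was at 0 in libraries 11 and 17, the median was 1.38 CPM, and the highest levels were 273 CPM in library 14, 237 CPM in library 7, 64.3 CPM in library 3 and 14.0 CPM in library 13. The other 9 libraries with counts had 0.0233 to 3.20 CPM. Libraries 14 and 7 held 85.3% of all Cst8 counts in sperm.

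In ovary Cst8 was counted in 14 of 14 libraries, from 0.143 to 1.41 CPM with a median of 0.487 CPM. Each brain group had 1 count. All ovary libraries were above all female brain libraries. Ovary against female brain was the comparison in which 1 of the 10 genes passed the filter, and it was called higher, at 7.17 ± 0.46 (SE) on the log2 scale with an edgeR adjusted p of 3.30e-15; 56.9% of 20801 genes tested were called and 27.7% were called higher. The single brain count gives a ratio of 503 with an exact 95% counting interval of 89.8 to 19909.

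Sperm and ovary overlapped for Cst8. Of the 15 sperm libraries, 7 were above the highest ovary library, 3 were within the ovary range and 5 were below the lowest ovary library. The log2 fold change of sperm over ovary was 6.51 ± 1.30 (SE) with an edgeR adjusted p of 5.46e-05. With limma voom, which gave variable libraries less weight, it was -0.27 with an adjusted p of 0.756, so neither the call nor the direction held. Against male brain Cst8 did not pass the filter. Without a filter the log2 fold change was 13.41 with an edgeR adjusted p of 5.33e-08, from 31508 counts in sperm and 1 in brain. DESeq2 gave no adjusted p for Cst8 in either of these comparisons.

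Of the cystatin genes near Cst8, Cst13, Cstl1 and Cst12 showed the same libraries as high. Cst9l, Cstdc1 and Cstdc2 of the same cluster reached 12.7, 1.62 and 0.520 CPM in sperm, and their levels by library are not given. In libraries 14 and 7, Cst13 had 180 and 84.3 CPM, Cstl1 had 122 and 70.0 CPM and Cst12 had 15.6 and 26.3 CPM. In libraries 16 and 17, all 3 genes had 0 counts. Cst3, the widely expressed cystatin C at the edge of the cluster, ranged only from 130 to 260 CPM. Cst12, although also high in libraries 14 and 7, was left out of the sequences compared here. No relation of Cstl1 to Cst8 was computed. Sequences before the listed starts of Cst8, Cst13 and Cstl1 are shown. In the 250 bases before their listed starts (RefSeq, GRCr8), the longest word present in all 3 on the strand of the gene was 8 bases, TCACAAAG, in capitals below. It was looked for after the levels and sequences had been seen. For Cst8 (chr3:156697526-156697775, plus strand) the whole window is given, and for Cst13 (chr3:156720155-156720184, plus strand) and Cstl1 (chr3:156652977-156653006, plus strand) the 30 bases around the word.
Cst8: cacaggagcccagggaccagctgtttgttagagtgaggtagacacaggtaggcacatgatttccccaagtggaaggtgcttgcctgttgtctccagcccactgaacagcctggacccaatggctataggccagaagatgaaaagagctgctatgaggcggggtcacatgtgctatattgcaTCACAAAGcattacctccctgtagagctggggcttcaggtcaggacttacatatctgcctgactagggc
Cst13: cctagcttaccTCACAAAGgggatgcaggt
Cstl1: ttggggttaccTCACAAAGctctgctgggt

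The word began at -69, -68 and -64 bases from the listed starts of Cst8, Cst13 and Cstl1. The listed starts of Cst13 and Cstl1 lie 43 and 85 bases inside the annotated gene. The annotated gene of Cstl1 starts at 156652967, so its printed bases and the word lie inside that gene. The positions of the word therefore depend on the listed starts. Of 33469 promoter windows of the same length, 0.846% held TCACAAAG on the strand of the gene and 1.69% on either strand. The windows of Cst12, which also varied with Cst8, and of Cst3 did not hold it. Of the 10 genes, 8 had a listed promoter, all but Crisp1 and Cst11. The only holder among them was Cst8, from whose window the word was taken. The shares above are for this word only. How often such windows share any word of 8 bases was not computed.

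Other motifs were searched in the same 8 windows, on both strands. The cAMP response element TGACGTCA was in none of the 8 and in 1.59% of all windows, and the element's half-site TGACG was in Rnase9 and in 18.2% of all windows. The androgen response half-site AGAACA was in Lcn6 and Lcn10 and in 17.5% of all windows. TATAAA was in Lcn5, starting at -30, and in 12.9% of all windows, and CCAAT was in 6 of the 8 and in 34% of all windows. TGACG lies within TGACGTCA, and the other motifs do not overlap by their letters.

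Odf1 encodes a protein of the outer dense fibres of the sperm tail and is transcribed in spermatids. In the 15 rat sperm libraries it ranged from 144 CPM in library 11 to 4743 CPM in library 14, with a median of 605 CPM. The largest gap between neighbouring libraries was 21.3% of the log2 range, so the libraries were treated as a single series. Relations were computed on log2(CPM + 1) with 100000 permutations, two-sided, and adjusted over the 10 genes.

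None of the 10 genes passed at an adjusted p of 0.05 by Spearman's rho, and 2 had an unadjusted p below 0.05, Cst8 and Lcn9. For Cst8, rho was 0.69 (permutation p = 0.00598, adjusted 0.0579, n = 15 libraries) and Pearson's r was 0.68 (permutation p = 0.00445, adjusted 0.0222). Without libraries 14 and 7, which lie farthest from the Odf1 median, r was 0.43, so the relation to Odf1 rested in part on these libraries. Without libraries 16 and 17, rho was 0.82 with a permutation adjusted p of 0.0099, and without library 7 as well it was 0.77 with a permutation adjusted p of 0.0512.

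The ratio of Cst8 to Odf1 varied widely. Per 1000 counts of Odf1, Cst8 had 57.5 counts in library 14, 54.0 in library 7, 32.2 in library 3, 24.9 in library 13, 8.55 in library 9 and 7.66 in library 4, and 0 to 1.92 in the other 9. Libraries 10 and 17 were among those 9 despite Odf1 levels of 3752 and 1368 CPM, with 0.879 CPM of Cst8 in library 10 and 0 counts in library 17. Library 10 also had little Tnp1, the gene of a transition protein of elongating spermatids, at 7.5 CPM against 4776, 3461 and 1069 CPM in libraries 14, 7 and 3.

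**Figure D3:**
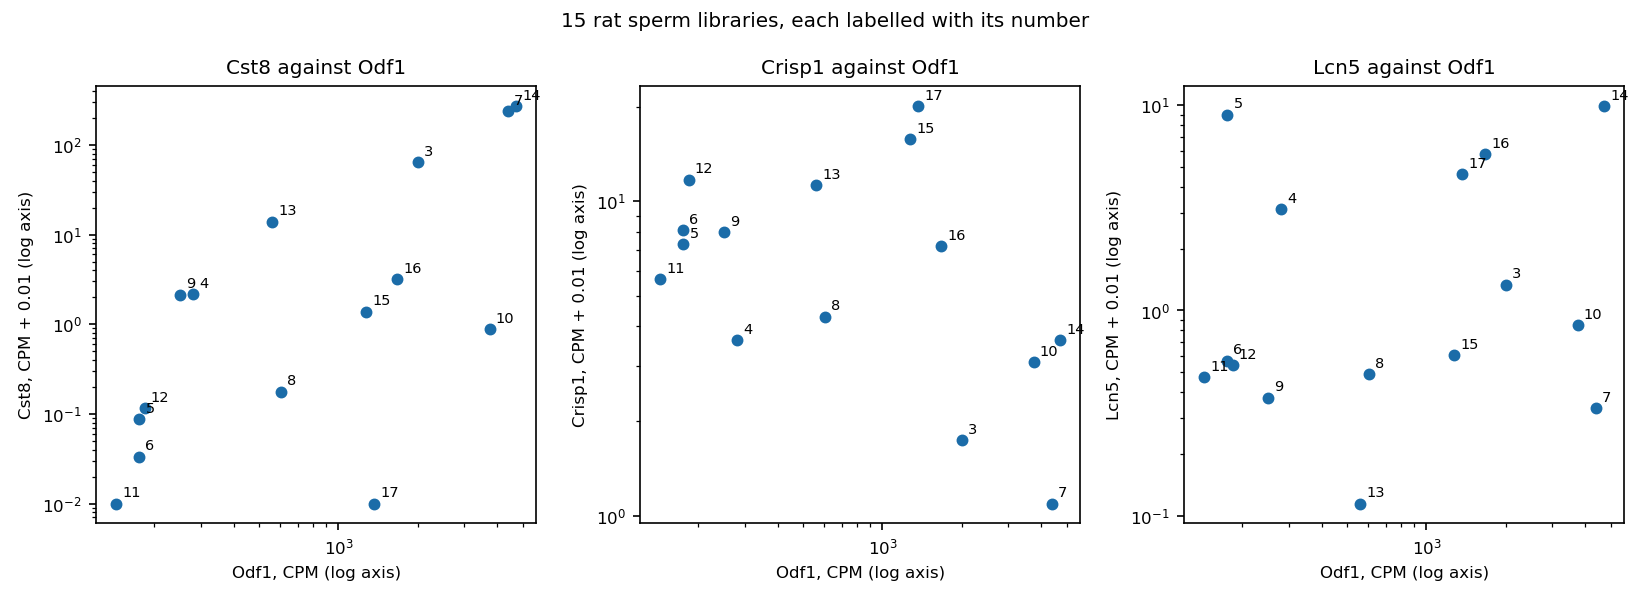
Level of Cst8, Crisp1 and Lcn5 (CPM + 0.01, log axis) against Odf1 (CPM, log axis) in the 15 rat sperm libraries, each labelled with its number. Cst8 is highest in libraries 14, 7 and 3 and is low in library 10, whose Odf1 level is 3752 CPM, while Crisp1 is lowest in libraries 7 and 3 and Lcn5 shows no order.

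For Lcn9, rho with Odf1 was 0.64 (permutation p = 0.0116, adjusted 0.0579, n = 15 libraries) and r was 0.66 (permutation p = 0.00147, adjusted 0.0147). Without libraries 14 and 7, r was 0.42, and only 16 of its 73 counts were left. For Crisp1, rho was -0.46 (permutation p = 0.0838, adjusted 0.225, n = 15 libraries) and r was -0.42, which became -0.17 without libraries 14 and 7. Per count of Ces5a, in place of the total, rho was -0.10 for Crisp1 (permutation adjusted p = 0.715, n = 15 libraries) and 0.50 for Lcn5 (permutation adjusted p = 0.195, n = 15 libraries). For Lcn5, rho was 0.28 (permutation p = 0.320, adjusted 0.399, n = 15 libraries) and r was 0.20. The other 6 genes had rho from -0.43 to 0.43, with permutation adjusted p of 0.225 or more. The highest, Cst11, rests on 1 count in 1 library. The lowest, Rnase9, had an r of -0.53 (permutation p = 0.037, adjusted 0.124).

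The 3 genes that averaged 1 CPM or more were then set beside 14 late germ cell genes and the 21 other epididymal genes, in 105 relations adjusted together. The share of all genes that would pass was not computed, so the counts of passes are not read as particular to these lists. Cst8 had a called positive rho with 13 of the 14 germ cell genes, all but Smcp, with a median rho of 0.82 and a range of 0.61 to 0.97. The highest was Tnp1, with rho 0.97 and r 0.97 (permutation p = 1e-05 for both, the smallest that the permutations can give, adjusted 0.00021 for rho), and r was 0.96 without libraries 7 and 14. Odf1 itself is among these 14, and its adjusted p is 0.0299 over the 105 relations and 0.0579 over the 10 genes. The median rho of Cst8 with the other epididymal genes was -0.23, or -0.02 without the 2 farthest libraries of each pair, none passed with a negative rho, and the 2 of 21 that passed were its neighbours Cst13 and Cst12.

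For Crisp1, none of the 14 germ cell genes passed in either direction, with a median rho of -0.45 that was -0.25 without the 2 farthest libraries of each pair, and 7 of the 21 epididymal genes passed with a positive rho. The highest was Rnase11, with rho 0.97 and r 0.96 (permutation p = 1e-05 for both, adjusted 0.00021 for rho), and r was 0.95 without libraries 3 and 7. The others were Rnase12, Spink13, Wfdc8, Cd52, Wfdc9 and Eppin. Lcn5 passed with none of the 35 genes, and its median rho was 0.04 with both lists.

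The summed level of the other epididymal genes ranged from 4080 to 33894 CPM and was lowest in libraries 14 and 7, where the summed late germ cell level was highest, at 36734 and 35917 CPM. Both are shares of the same totals. Over the sperm libraries, leukocyte markers (7 of 7 at 1 CPM or more) summed to 86.6 to 1185 CPM, clear cell markers (5 of 6) to 67.1 to 365 CPM, basal cell markers (5 of 5) to 24.6 to 246 CPM, smooth muscle markers (4 of 6) to 0 to 70.6 CPM, accessory gland genes (3 of 9) to 0.606 to 19.1 CPM and testis somatic markers (3 of 7) to 0 to 38.3 CPM. No listed marker was at 0 in all sperm libraries, and the part of these cells in the levels of Crisp1, Lcn5 and Cst8 was not tested.

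**Figure D4:**
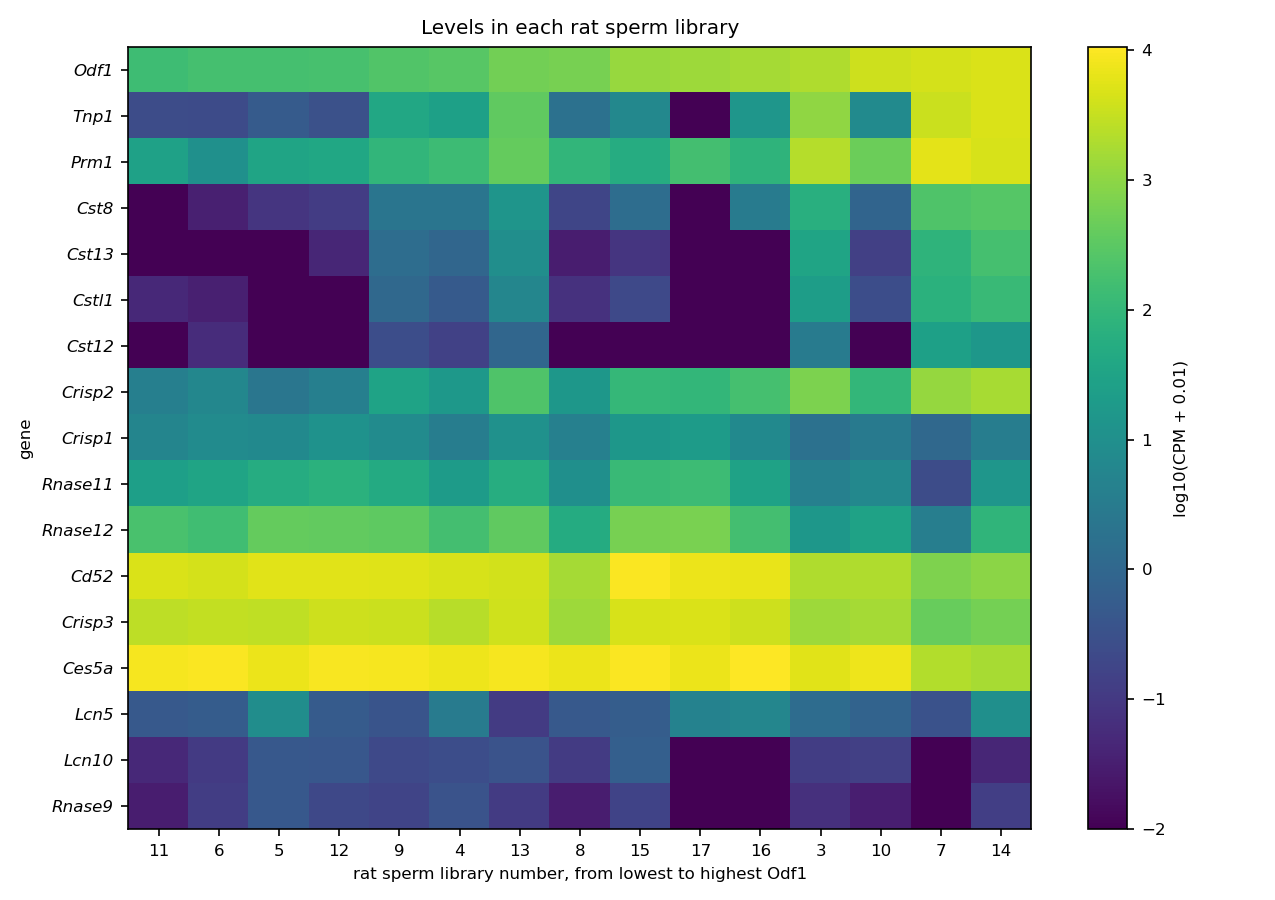
Colour shows log10(CPM + 0.01) of 17 genes (rows) in the 15 rat sperm libraries (columns), ordered from the lowest to the highest Odf1. Cst8, Cst13, Cstl1 and Cst12 are brightest in libraries 3, 7 and 14 together with Tnp1 and Prm1, and Crisp1, Rnase11 and Rnase12 are darkest in library 7.

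Among themselves the 10 genes varied largely apart. Over the 45 pairs, the median rho was 0.03 and the range -0.53 to 0.81. The pair of Lcn10 and Rnase9 passed, with rho 0.81 and r 0.69 (permutation p = 0.0005 for rho, adjusted 0.0225, n = 15 libraries; permutation p = 0.00535 for r, adjusted 0.0803), and r was 0.72 without libraries 5 and 15. Both genes have 0 counts in libraries 7, 16 and 17, and without 16 and 17 no pair passed. For Lcn9 and Cst8, r was 0.92 (permutation p = 2e-05, adjusted 0.0009, n = 15 libraries) and rho was 0.69 (permutation p = 0.00537, adjusted 0.0806). Without libraries 7 and 14, r was 0.88 and rho was 0.49. Lcn9 had 0 counts in 9 of the 15 libraries.

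Likeness over the sperm libraries was ranked by Spearman's rho among 9378 genes with a mean of at least 10 CPM, as a description with no test. The 10 genes most like the mean z-score of the set were C1r, Upk3b, Ergic3, Sparc, C4a, Msln, Col1a2, Rn28s, Ccn1 and Meaf6, with rho from 0.54 to 0.65. For Cst8 alone the nearest were Selenov, Cimip1, Slc22a14, Cldnd2 and Fam228a, at 0.99 or above. For Crisp1 alone they were Serpina16, Mfrp, Adora1, Rnase11 and Gdpd5, at 0.96 to 0.98, and for Lcn5 the highest was Plagl2 at 0.58. The rankings for single genes were chosen after the levels had been seen.

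Calls made without a filter have their own background. In that setting 62.2% of genes tested were called between rat sperm and male brain, where 5 of the 10 genes were called, 55.6% between ovary and female brain, where 4 were, 55.6% between sperm and ovary, where 7 were, and 68.7% in sheep, where 7 of 8 were. With DESeq2 the shares of all genes with an adjusted p were 55.4, 52.7, 49.5 and 66.8% in the same order, with 4 of 8, 3 of 10, 6 of 9 and 5 of 7 of the genes called. Nothing is read from these counts about the genes as a set.

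The other epididymal genes were counted in the same fits, from lists chosen with these data known. Against male brain, 14 of 21 were tested, with 11 higher and 2 lower calls for sperm and a median log2 fold change of 5.33 against -0.03 over all genes tested. Against ovary, 16 were tested, 11 were called higher and 1 lower, with a median of 3.58 against -0.12. The late germ cell genes were called higher in sperm in 14 of 14 in both comparisons. Over all genes tested, 27.7% were called higher and 31.5% lower against male brain, and 22.9% higher and 27.9% lower against ovary. In sheep, 10 of 18 epididymal genes were tested, 7 were called higher and 1 lower, with a median of 3.18 against -0.42.

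In sheep, RNASE9 was the clearest of the 8 genes. Sperm had 1.38 CPM in sheep 687, 2.93 CPM in 688, 2.19 CPM in 690, 1.56 CPM in 694 and 2.00 CPM in 699, and the 50 brain libraries had 2 counts between them. The groups did not overlap. Over group totals the ratio was 2815, with an exact 95% counting interval of 774 to 23325. Of the 8 genes, 4 passed the filter, with 3 called higher and 1 lower in sperm, while calls were made for 74.2% of the 21859 genes tested (33.1% higher, 41.1% lower). RNASE9 had a log2 fold change of 11.99 ± 0.30 (SE) and an edgeR adjusted p of 7.40e-18.

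RNASE10 in sperm was above every brain library in 4 of 5 sheep on plain totals. Sperm had 0.138 CPM in 687, 1.73 CPM in 688, 1.90 CPM in 690, 1.93 CPM in 694 and 0.928 CPM in 699, and brain had 0.0337 to 0.607 CPM with a median of 0.222 CPM. Sheep 687 lay within the brain range on plain totals. There, 85.2% of its sperm counts were in 4 entries with placeholder names, and with these left out its RNASE10 level was 0.932 CPM (9 counts), above the brain maximum of 0.657 CPM. The log2 fold change was 4.89 ± 0.29 (SE) with an edgeR adjusted p of 3.01e-21. Mean levels in the 10 brain regions ran from 0.0878 CPM in CB to 0.381 CPM in PPC, and differences between regions were not tested.

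LCN6 in sperm was also above every brain library in 4 of 5 sheep, at 0.537 CPM in 687, 1.17 CPM in 690, 1.56 CPM in 694 and 0.780 CPM in 699. Sheep 688 had 1 count, or 0.0203 CPM, which is within the brain range of 0 to 0.288 CPM. The log2 fold change was 5.41 ± 0.32 (SE) with an edgeR adjusted p of 1.50e-21. Regional means ran from 0.0692 CPM in FC to 0.202 CPM in Hip.

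The size of these sheep differences rests on the scaling. In sheep sperm, 4 entries with placeholder names held 22.4 to 85.2% of the counts, and the TMM factors of the sperm libraries were 0.114 to 0.305 against 0.927 to 1.42 in brain. LCN6 was 5.96-fold higher over plain totals, 14.6-fold higher with the 4 entries left out and 35.3-fold higher over TMM-scaled totals. For RNASE10 the same ratios were 4.66, 11.4 and 27.6. The direction was the same on each scale. The median log2 fold change of all genes tested was -0.42 with TMM, 0.31 with upper quartile factors and 1.05 with DESeq2.

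**Figure D5:**
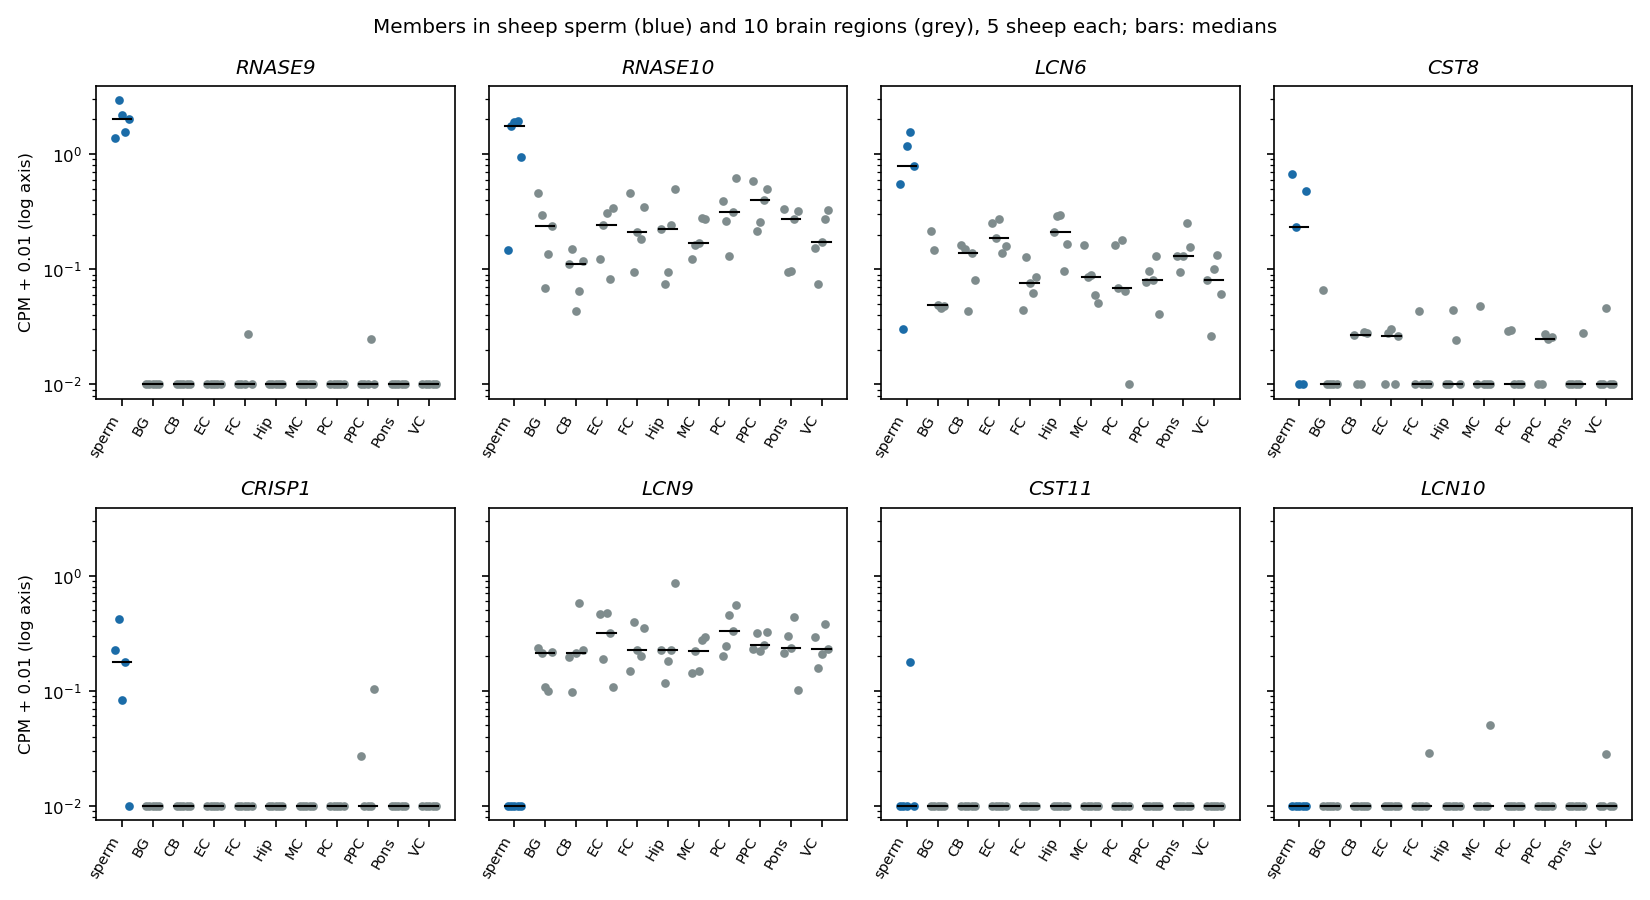
Each panel plots 1 gene in sheep, with CPM + 0.01 on a log axis against sperm (blue) and 10 brain regions (grey), 5 sheep in each; bars are medians. RNASE9 lies between 1.38 and 2.93 CPM in sperm and at or near 0 in brain, and LCN9 is counted in all 50 brain libraries and at 0 in the 5 sperm libraries.

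LCN9 went the other way. It had 740 counts over the 50 brain libraries, at 0.259 CPM ± 0.143 (SD, n = 50) and at least 0.0883 CPM in each, and 0 counts in the 5 sperm libraries. A count of 0 over the sperm group allows 0.0146 CPM (3 counts), so LCN9 was at least 17.7-fold lower in sperm over plain totals. With the 4 placeholder entries left out the bound was 7.25, and over TMM-scaled totals it was 2.99. The gene was called lower, with an edgeR adjusted p of 4.96e-05. With limma voom the log2 difference was -1.11 with an adjusted p of 0.511, so that call was lost. Regional means ran from 0.165 CPM in BG to 0.347 CPM in PC.

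The remaining sheep genes had few counts. CRISP1 had 14, 20, 1, 5 and 0 counts in the sperm of 687, 688, 690, 694 and 699, and 7 counts in the 50 brain libraries, all in PPC. CST8 had 43, 11, 0, 0 and 22 counts in sperm and 24 in brain. Without a filter both were called higher in sperm, CRISP1 at 8.29 on the log2 scale with an edgeR adjusted p of 1.51e-08 and CST8 at 7.56 with an edgeR adjusted p of 1.68e-18, and of the 2 DESeq2 called CST8 (adjusted p = 1.30e-13, against 0.124 for CRISP1). CST11 had 5 counts, all in the sperm of 694. LCN10 had 0 counts in sperm and 4 in brain.

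ODF1 in the same sheep sperm libraries had 10.7, 1.55, 5.69, 8.70 and 34.9 CPM, in the order 687, 688, 690, 694 and 699, and 0 to 0.208 CPM in brain. With 5 sheep no relation between ODF1 and the other genes was computed. LCN6 and ODF1 were both lowest in sheep 688, also with the 4 placeholder entries left out. The order of the sheep for RNASE9 changed with the total used. On plain totals it was highest in 688, and with the 4 entries left out it was lowest there, at 3.78 CPM against 3.93 to 9.32 CPM in the others.

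Without a filter, edgeR called Crisp1, Rnase9 and Cst8 higher in sperm than in brain in both species, with different numbers of counts behind the calls. In that setting 12974 of 35486 genes were called higher in rat sperm than in male brain, and 10710 of 29381 in sheep. The share called higher in both species was not computed. DESeq2 did not call CRISP1 in sheep (adjusted p = 0.124) and gave no adjusted p for Cst8 in rat. RNASE9 separated sperm from brain in sheep, with 405 counts against 2, and in rat it had 101 counts in sperm against 6 in male brain, an 18.1-fold ratio. Crisp1 separated sperm from male brain in rat, and in sheep it had 40 counts in sperm against 7 in brain, a 79.4-fold ratio. For Cst8, rat sperm had 31508 counts against 1 in male brain, with the groups overlapping. In sheep, CST8 had 76 counts in sperm against 24 in brain. Rnase10 was called higher in sheep sperm, and in rat it had 31 counts in sperm against 52 in male brain. Extraction and library kits differed between the species, so the species cannot be told apart from the preparation, and the difference was not tested.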

How the data were processed

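RNA from rat brain, sperm and ovary and from sheep brain and sperm was sequenced, and the deposited values are raw read counts per gene made by the authors, with rat and sheep in separate tables. Rat RNA was extracted with a Zymo kit and sheep RNA with TRIzol, per the labels' protocols. The submitters' processing notes name Trimmomatic 0.39, STAR 2.7.5a and Rsubread 2.20.0, with the GRCr8 and ARS-UI_Ramb_v3.0 builds. Whether counting used strand, and how it treated reads with several matches, was not stated in these sources, so overlapping genes cannot be told apart.

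Groups came from the labels. The genes and lists were chosen with earlier results of these data known. Levels are CPM of the plain library total. Group differences were tested on the counts with edgeR 4.0.16 (TMM, filterByExpr, quasi-likelihood test, prior count 0.125, Benjamini-Hochberg adjustment over all genes tested), with calls at an adjusted p under 0.05 and a log2 change of 1 or more in size. limma 3.58.1, DESeq2 1.42.0, R 4.3.3, Python 3.11.15, numpy 2.4.6, pandas 2.3.3 and scipy 1.17.1 served the alternatives, the permutations (100000) and exact 95% intervals, and matplotlib 3.10.9 drew the figures. Intervals and limits from 0 counts (3 counts) cover counting error only. The fits were tested on simulated data. No 2 libraries held identical values.

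Equal animal numbers mark the same animal in the labels. Deviations of same-numbered libraries correlated at -0.066 to 0.143 between rat sperm and male brain, -0.046 to 0.084 between ovary and female brain and 0.039 to 0.090 in sheep. The highest correlation was with the own number for 3 of 15 rat sperm, 2 of 14 ovary and 5 of 5 sheep sperm libraries. In sheep the median was 0.043 for the same number and -0.012 for other numbers. The main sheep fit held no term for the animal. Sperm and ovary come from different animals and were not paired. The sheep brain group holds 10 libraries from each of 5 sheep, fitted as 10 groups whose mean was set against sperm; the test treats libraries of a sheep as separate, so its p-values may be too small.

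The text names the 10 genes, Odf1, the 10 genes most like their mean z-score, and the 3 genes of highest mean level from each list described. Further neighbours, family members, markers and likeness to single genes were chosen after their values were seen. Alternatives were other scaling factors, no filter, DESeq2, voom, the animal block and leaving out libraries. Leaving out rat sperm library 7 with 16 and 17, male brain library 4 or female brain library 1, scaling by Ces5a, and sheep totals without 4 placeholder entries, were chosen after seeing the data.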

Additional observations from a re-analysis of the deposited data

Results flagged for a closer look

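In groups of 5 sheep, a library was singled out where its gap to the nearest other library, divided by the range of the group, was above the Dixon critical value of 0.71. This held for 4 of the 37 groups tested. The rate of about 1 in 20 by chance holds for normally distributed values, which counts this low are not. A gene counted in 1 library only, such as CST11 in sperm, always passes. The number of groups is therefore not read as an excess. In sperm, CST11 was 0.169 CPM in sheep 694 and 0 in the other 4, and ODF1 was 34.9 CPM in sheep 699 against 1.55 to 10.7 CPM in the others. In brain, LCN9 was 0.570 CPM in the cerebellum of sheep 694, and it was 0.846 CPM in the hippocampus of sheep 699.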

How the results depend on the processing

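Without a low-count filter, 5 of the 10 genes were called between rat sperm and male brain, 4 between ovary and female brain, 7 between sperm and ovary and 7 of 8 in sheep, and DESeq2 called 4, 3 and 6 in the rat comparisons. More genes were tested in these settings, and 49.5 to 68.7% of all genes were called in them. With the animal number as a replicate block the counts of calls were 2, 1 and 4, as without it. Leaving out each sheep's sperm in turn gave 4 to 4 calls. With limma voom, Cst8 in sperm against ovary turned to -0.27 (adjusted p = 0.756), and LCN9 in sheep was -1.11 (adjusted p = 0.511); the cause was not tested.

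The number of genes related to Odf1, 0 by rho, was 2 without libraries 16 and 17 and 2 by Pearson's r. The number of related pairs, 1 by rho, was 0 without libraries 16 and 17, 0 without libraries 7, 16 and 17 and 2 by Pearson's r; the cause was not tested. Among values of single genes under these alternatives, 159 kept their direction and side of the threshold, 4 newly passed it, 1 no longer passed it and 2 changed direction, Cst8 with voom and Lcn8 with Odf1, whose rho of 0.094 became an r of -0.043, neither past the threshold. Depth limits Cst11, Lcn6, Rnase10 and Lcn8 in rat sperm, at 1 to 45 counts per group.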
